A study of Homo sapiens with 6 samples.

Results

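SR proteins and heterogeneous nuclear ribonucleoproteins (hnRNPs) were examined in A2780 cells with USP39 knockdown. The members were defined by gene symbol, from families picked with earlier results of these data in view: every SRSF gene with a number, every symbol that starts with HNRNP, and TRA2A, TRA2B, PTBP1, PTBP2, PTBP3, SRRM1 and SRRM2. The table held 31 such genes in 44 transcript rows, out of 16571 genes in 21368 rows. They were 8 SRSF genes, 16 HNRNP genes, 3 PTBP genes, 2 TRA2 genes and 2 SRRM genes. Other genes of these families, among them SRSF1, SRSF3, HNRNPC and HNRNPK, had no row among those analysed here, so the results do not cover them.

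SR proteins bind exonic splicing enhancers through RNA recognition motifs and recruit the splicing machinery through a domain rich in arginine and serine. hnRNPs coat nascent transcripts, and many of them, such as HNRNPA1 and PTBP1, hold back exons that SR proteins favour. Many of these genes control their own messenger RNA through alternative exons that carry a premature stop codon and send the transcript to nonsense-mediated decay, so their transcripts are a known readout of the splicing machinery. USP39 is a protein of the tri-snRNP particle of that machinery. The rows analysed here were those of RefSeq messenger RNA, and transcripts with such a stop codon were not tested apart from them.

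The cells were A2780, an established human ovarian cancer line that the labels call serous. Both groups were infected with lentivirus: 3 libraries carried the control vector pGIPZ-NC and 3 carried the hairpin shUSP39, and the study's methods describe stable lines selected with puromycin. Which of the study's hairpins was used is not given in the labels, and nothing in them says whether the 3 libraries of a group came from separate infections. RNA-seq reads were counted per RefSeq messenger RNA, and levels are given as CPM, a gene's counts relative to the scaled total of its library. How reads shared by several transcripts were counted is not given. If they were left out, the level of a gene with several transcripts is that of its distinguishable reads and not of the whole gene.

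The total was between 28294819 and 32939264 counts per library. USP39 was not analysed here, so the knockdown itself was not checked in these libraries. Markers of serous or epithelial ovarian cells were near 0: PAX8 and EPCAM had at most 6 counts in a library and CDH1 at most 1. KRT7 had at most 16 and KRT18 between 676 and 1075. MUC16 had 150 and 71 counts in shUSP39 replicates 2 and 3 and at most 6 in the other libraries. Some markers moved with the groups: KRT18 had mean levels of 22.4 CPM in the controls and 32.9 CPM with the hairpin, KRT8 0.979 and 0.0312 CPM, and the fibroblast markers LUM and DCN 4.73 and 0.380 CPM and 1.13 and 0.0785 CPM. The other fibroblast markers were COL1A1, at 187 to 245 counts in a library, and PDGFRA, at 6 counts or fewer. Of the leukocyte markers, PTPRC and CD3E had at most 7 and 5 counts and CD68 between 295 and 382. Of the endothelial markers, PECAM1 had at most 5 counts, CDH5 at most 13 and VWF between 9 and 40, and VWF and CDH5 were highest in shUSP39 replicates 2 and 3. The part of these differences in the results was not tested. In shUSP39 replicates 2 and 3, 15446 and 14890 genes had a count, against 12662 to 12819 in the other 4 libraries. Calls that change without these 2 libraries are given with both values, and in those fits the lone shUSP39 library was assumed to vary like the others.

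Most of the SR protein and hnRNP genes tested here did not pass, and no called member moved beyond 2-fold. HNRNPA2B1 and HNRNPF were higher in shUSP39. HNRNPA1, HNRNPA0, SRSF12 and SRSF9 were lower. Of the 31 members, 27 passed the filter on low counts and were tested. At an adjusted p under 0.05 in edgeR's quasi-likelihood test, 2 members were higher and 4 were lower, or 22.2% of those tested, against 33.6% of all 10695 genes tested (16.1% higher and 17.5% lower). With the 2-fold limit as well the count was 0 in members and 6.81% in all genes. At an unadjusted p under 0.05 there were 10 members (37%), against 41.3% of all genes. DESeq2's Wald test called 7 members after adjustment (25.9%, against 33.1% of all genes), SRSF4 being the added one.

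Most estimates were negative. Of the tested members, 18 (66.7%) had a negative log2 fold change, against 48.8% of all genes. Their median log2 fold change was -0.06, against 0.01 over all genes. The median size of the change was 0.12 in members and 0.22 in all genes, both on the log2 scale and regardless of direction. The libraries of the groups did not overlap in 12 members (44.4%), 2 higher and 10 lower, and in 44.2% of all genes (21.7% higher and 22.5% lower). Under upper-quartile scaling the median over all genes was 0.05, so a change as small as these medians rests in part on the scaling.

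**Figure D1:**
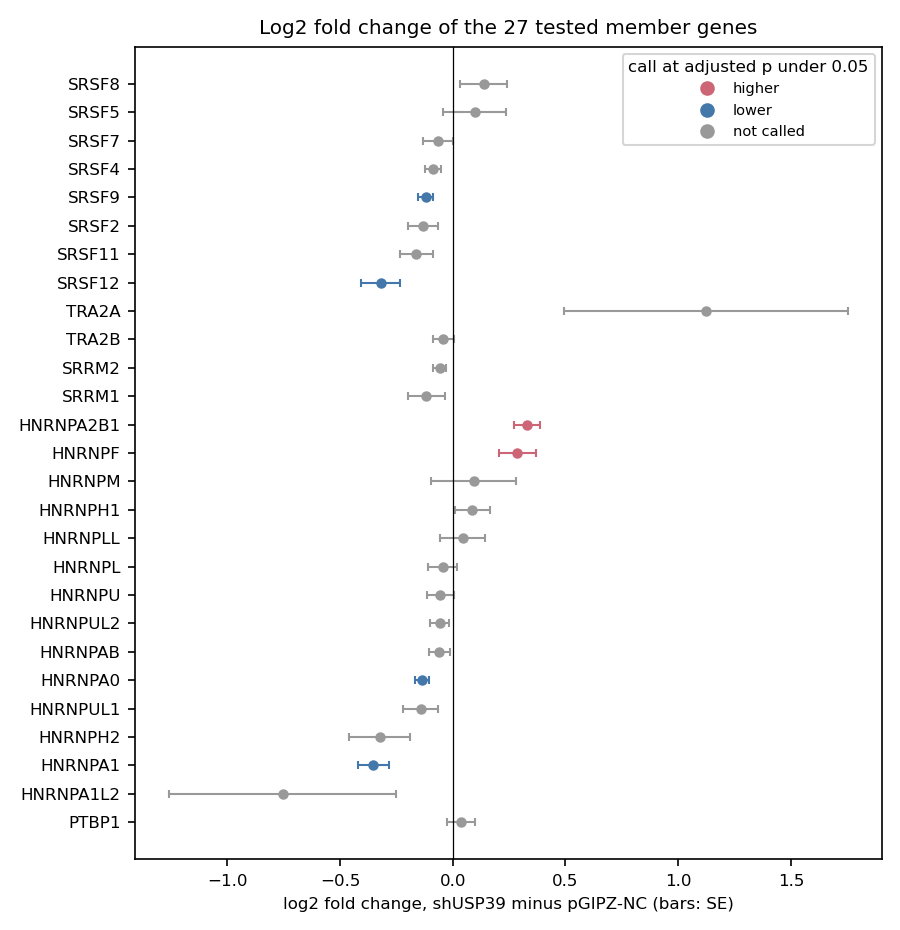
Log2 fold change (x axis, shUSP39 minus pGIPZ-NC) of the 27 tested members, ordered by family. Points are estimates from edgeR, bars are standard errors, and colours give the call at an adjusted p under 0.05. The 6 called members lie between -0.35 and 0.33, and TRA2A and HNRNPA1L2, which have few counts, carry the widest bars.

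HNRNPA2B1, which encodes the hnRNP A2 and B1 proteins, had the largest called rise. Its level was 76.9, 72.9 and 72.6 CPM in pGIPZ-NC replicates 1, 2 and 3, and 94.3, 98.6 and 86.9 CPM in shUSP39 replicates 1, 2 and 3. All 3 knockdown libraries lay above all controls. The log2 fold change was 0.33 (SE 0.06, n = 3 each), and the adjusted p was 5.24e-05. Only NM_031243.2, the RefSeq entry of the longer B1 form, stood in the table for this gene, so the rise is that of this row and not of the gene as a whole. It was 0.35 without shUSP39 replicates 2 and 3 (adjusted p 0.00154). The gene lies on chromosome 7 (26210771 to 26241149, minus strand, GRCh37).

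HNRNPA1, a close relative of HNRNPA2B1 that favours exon skipping, moved the other way. It had 60.2, 66.1 and 65.2 CPM in the controls and 53.6, 46.8 and 49.6 CPM in the knockdown libraries, with no overlap. This was a log2 fold change of -0.35 (SE 0.07), and the adjusted p was 0.000146. Again a single row was present, NM_031157.3, the entry of the longer A1-B form. Without shUSP39 replicates 2 and 3 the log2 fold change was -0.25, with an adjusted p of 0.0515. HNRNPA1 (chromosome 12, 54673977 to 54680872, plus strand, GRCh37) has many processed copies in the genome, and its counts are uncertain for that reason.

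HNRNPA0, an hnRNP A/B gene whose coding sequence lies in a single exon, was lower by a small amount that its depth resolved. Its level was 1105, 1159 and 1096 CPM in pGIPZ-NC and 1014, 1007 and 1038 CPM in shUSP39. The groups did not overlap, and the log2 fold change was -0.14 (SE 0.03, adjusted p 0.00103). HNRNPAB, another member of the same branch, stood at -0.06 on the same scale (adjusted p 0.351). HNRNPA1L2, a retrocopy of HNRNPA1, had 10 to 35 counts in a library, and its log2 fold change of -0.75 had an SE of 0.50 and did not pass (adjusted p 0.273). It was -1.50 without shUSP39 replicates 2 and 3 (adjusted p 0.202).

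**Figure D2:**
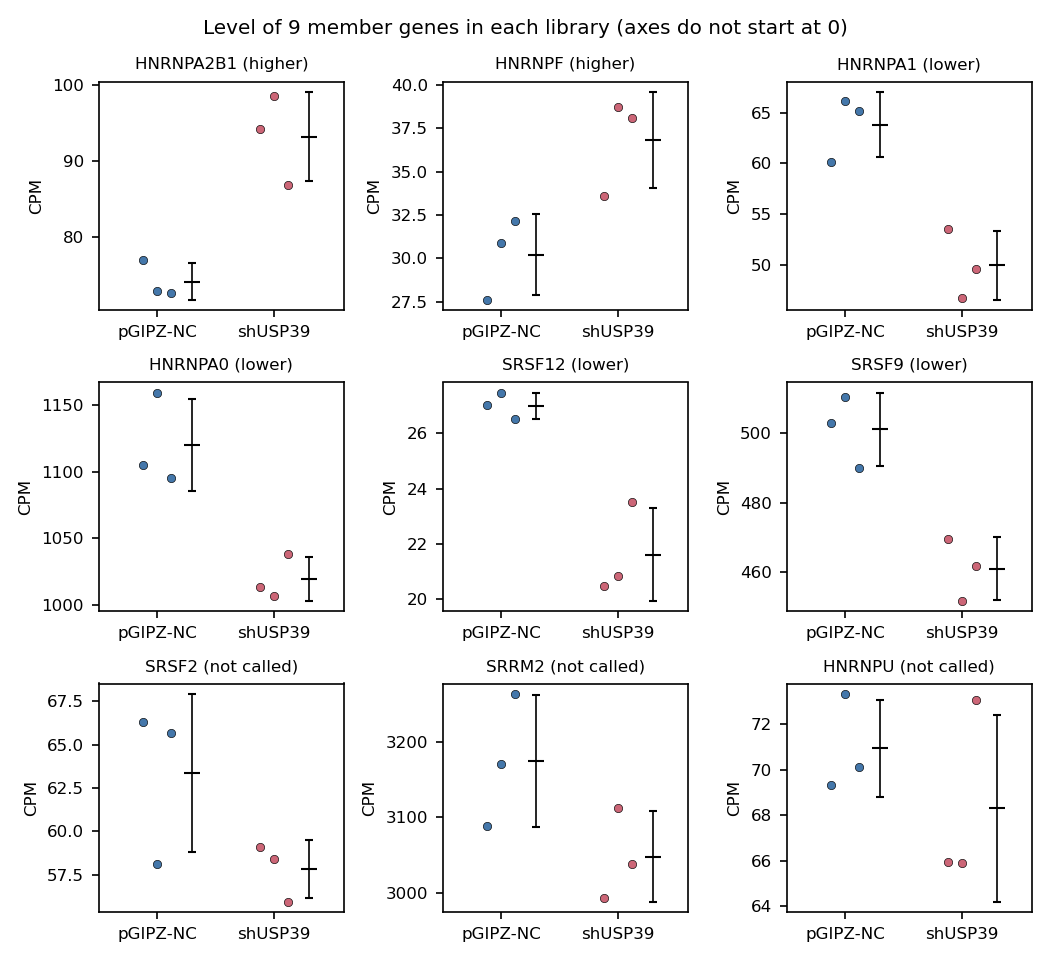
Level in CPM (y axis, a separate scale per gene that does not start at 0) of 9 members in each library of pGIPZ-NC (blue) and shUSP39 (red). Black bars are the mean and SD of 3 libraries. In the upper 6 panels the groups do not overlap, while in SRSF2, SRRM2 and HNRNPU they do.

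Among the SR proteins tested, SRSF12 fell the most. It encodes SRrp35, an SR protein known to oppose other SR proteins in splice site choice. SRSF12 had 27.005, 27.4 and 26.5 CPM in pGIPZ-NC and 20.5, 20.8 and 23.5 CPM in shUSP39, so that each knockdown library was below each control. The log2 fold change was -0.32 (SE 0.09, adjusted p 0.00526), and it was -0.40 without shUSP39 replicates 2 and 3 (adjusted p 0.0229). Only 1 row was present for SRSF12, where RefSeq lists 4 messenger RNA accessions. The fall is that of this row and not of the gene as a whole. SRSF12 lies on chromosome 6 (89805678 to 89827790, minus strand, GRCh37).

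SRSF9 encodes SRp30c, a short SR protein. It had 503, 511 and 489.8 CPM in the controls and 469.6, 452 and 462 CPM in the knockdown libraries. The groups did not overlap, and the log2 fold change was -0.12 (SE 0.03, adjusted p 0.00671). This call depended on the scaling: under upper-quartile factors the value was -0.08 with an adjusted p of 0.0840, and without shUSP39 replicates 2 and 3 it was -0.09 with an adjusted p of 0.211.

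The upstream sequences of the members were compared, since the rule did not use them. RefSeq windows of 250 bases before the gene start (GRCh38.p14) were found for 28 of the 31 members, and HNRNPA1, SRSF2 and TRA2A had no entry. The median GC content was 65.8%, against 58% over 27305 genes. These include genes that were not tested here, and no set of genes matched for GC content was compared. GGGCGG, the core of the Sp1 site, was present on either strand in 18 of the 28 windows (64.3%), against 42.3% of all windows. CCAAT was present in 14 (50%, against 33%). CCGGAAGT, an ETS family site, was in SRSF4 and SRSF5 (7.14%, against 3.64%), and the E-box CACGTG in HNRNPH2 and HNRNPM (7.14%, against 6.49%). Another motif searched, a palindrome with CGCG at its centre, was in 0 of the 28 windows and in 0.41% of all. The windows of the 3 members with an entry that fell are printed 5′ to 3′ on the gene's strand, with the letters of these motifs, on either strand, in capitals:
SRSF12, chr6:89118072-89118321, minus strand: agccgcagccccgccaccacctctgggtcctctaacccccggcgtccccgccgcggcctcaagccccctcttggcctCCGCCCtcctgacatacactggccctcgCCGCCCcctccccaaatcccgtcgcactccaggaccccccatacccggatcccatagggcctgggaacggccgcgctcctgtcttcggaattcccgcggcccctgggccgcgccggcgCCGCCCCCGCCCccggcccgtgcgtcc
SRSF9, chr12:120469749-120469998, minus strand: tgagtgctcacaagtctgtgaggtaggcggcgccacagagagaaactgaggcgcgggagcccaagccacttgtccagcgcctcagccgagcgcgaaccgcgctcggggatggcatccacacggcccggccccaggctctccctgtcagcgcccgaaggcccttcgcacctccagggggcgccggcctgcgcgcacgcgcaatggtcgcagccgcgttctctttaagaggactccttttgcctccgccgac
HNRNPA0, chr5:137754364-137754613, minus strand: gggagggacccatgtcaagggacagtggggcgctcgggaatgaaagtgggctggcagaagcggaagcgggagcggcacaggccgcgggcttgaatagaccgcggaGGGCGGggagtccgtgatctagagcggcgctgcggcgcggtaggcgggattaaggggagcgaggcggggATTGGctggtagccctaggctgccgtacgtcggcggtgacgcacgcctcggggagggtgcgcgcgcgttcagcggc
SRSF12 held 4 matches to GGGCGG, HNRNPA0 held 1 match to GGGCGG and 1 to CCAAT, and SRSF9 held 0 matches to any of the 5 motifs. No motif was thus found in all 3 windows. A match is a description of letters and not of a bound site.

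The other 6 SRSF genes were not called. SRSF4, which encodes SRp75, had between 363 and 378 CPM in pGIPZ-NC and between 342 and 356 CPM in shUSP39. Its groups did not overlap, and its log2 fold change of -0.09 (SE 0.04) missed the threshold with an adjusted p of 0.0550. It passed without pGIPZ-NC replicate 3 (0.0437), without shUSP39 replicate 1 (0.0312), in DESeq2's Wald test (0.0461) and with the replicate number as a block (0.0156). No other fit called SRSF4. Upper-quartile scaling shrank its log2 fold change to -0.04, at an adjusted p of 0.364. Dropping any of the remaining libraries singly gave adjusted p-values between 0.0815 and 0.181. With shUSP39 replicates 2 and 3 both dropped, the log2 fold change was -0.06. SRSF11, SRSF7, SRSF5 and SRSF8 differed between groups by -0.16, -0.06, 0.10 and 0.14 on the log2 scale (adjusted p 0.0910, 0.504, 0.645 and 0.342). SRSF8, a retrocopy of SRSF2, was highest in replicate 1 of each group, at 32.7 CPM in the control and 35.7 CPM in the knockdown. Without shUSP39 replicates 2 and 3 its value was 0.34 (adjusted p 0.0542).

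Transcripts of SRSF2, SRRM2 and HNRNPU are in the study's list of RNA bound by USP39, so they were compared in full. SRSF2, also known as SC35, is the protein by which the study marked nuclear speckles. It had 66.3, 58.1 and 65.7 CPM in pGIPZ-NC and 59.1, 58.4 and 55.9 CPM in shUSP39. The groups overlapped because pGIPZ-NC replicate 2 was low, and without that library the adjusted p fell from 0.127 to 0.0366. With any other library left out it lay between 0.113 and 0.334, and under upper-quartile scaling it was 0.336. With all libraries the log2 fold change was -0.13 (SE 0.06), with a 95% interval from -0.27 to 0.0019.

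SRRM2, a scaffold protein of nuclear speckles, was the most deeply counted member, with a mean of 95759 counts per library. It had 3089, 3171 and 3264 CPM in pGIPZ-NC and 2993, 3113 and 3038 CPM in shUSP39, with overlap. The log2 fold change was -0.06 (SE 0.03) and the 95% interval from -0.12 to -0.0020, but the adjusted p was 0.107. It passed without pGIPZ-NC replicate 1 (0.0365) and with the replicate block (0.0256). With any other library left out it did not pass (adjusted p between 0.0798 and 0.288). Under upper-quartile scaling the log2 fold change was -0.01, with an adjusted p of 0.737.

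HNRNPU, a nuclear matrix protein that also binds chromatin, had 69.3, 73.3 and 70.1 CPM in pGIPZ-NC and 66.0, 65.9 and 73.1 CPM in shUSP39. Only shUSP39 replicate 3 lay within the control range. The log2 fold change was -0.05 (SE 0.06, adjusted p 0.535), with a 95% interval from -0.18 to 0.07. Its paralogs HNRNPUL1 and HNRNPUL2 had log2 fold changes of -0.14 and -0.06 and did not pass (adjusted p 0.172 and 0.330).

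TRA2B and TRA2A encode the human relatives of the fly splicing regulator Transformer 2. TRA2B did not pass, at a log2 fold change of -0.04 with an SE of 0.05 (adjusted p 0.531). The value was 0.0023 under upper-quartile scaling. TRA2A had 3 to 24 counts in a library, all from 1 row. Its log2 fold change of 1.12 was the highest of the members, but the SE was 0.63 and the adjusted p 0.183, so a change was not detectable at this depth. It was 1.51 without shUSP39 replicates 2 and 3 (adjusted p 0.306). SRRM1, a coactivator that works with SR proteins, had a log2 fold change of -0.12 (adjusted p 0.295), and its groups did not overlap.

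PTBP1 represses exons through pyrimidine-rich tracts. It had between 75.9 and 83.1 CPM in pGIPZ-NC and between 75.4 and 88.2 CPM in shUSP39, and its log2 fold change of 0.04 (adjusted p 0.693) had no stable direction, since it was -0.0029 without pGIPZ-NC replicate 1 and -0.01 without shUSP39 replicate 3. PTBP2, its neuronal counterpart, PTBP3, HNRNPCL1 and HNRNPCL2 had at most 12 counts in a library and were not tested.

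HNRNPL and HNRNPLL bind CA-rich elements, and HNRNPLL is known from CD45 splicing in lymphocytes. In both, shUSP39 replicate 2 was the lowest of the 6 libraries. HNRNPL had 84.2 CPM there and between 94.9 and 105.8 CPM in the other 5, and HNRNPLL had 28.1 CPM there and between 30.6 and 38.7 CPM in the others. The log2 fold change was -0.05 for HNRNPL (adjusted p 0.651) and 0.04 for HNRNPLL (adjusted p 0.784). Without that library HNRNPL stood at 0.04 and HNRNPLL at 0.18, and neither passed (adjusted p 0.702 and 0.151).

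HNRNPF, HNRNPH1 and HNRNPH2 form a family that binds runs of guanine. HNRNPH2 had 9.002, 9.91 and 10.2 CPM in pGIPZ-NC and 7.91, 8.005 and 7.37 CPM in shUSP39. Its groups did not overlap, but at a mean of 269 counts its log2 fold change of -0.32 (SE 0.13) did not pass (adjusted p 0.0674). HNRNPH1 had a log2 fold change of 0.09 (adjusted p 0.432). Both genes are alike in sequence, and reads may be split between them.

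HNRNPF was the member with the most rows, and summing them hid a difference between them. The summed level was 27.6, 30.9 and 32.2 CPM in pGIPZ-NC and 33.6, 38.7 and 38.1 CPM in shUSP39, without overlap. For the sum the log2 fold change was 0.29 with an SE of 0.08 (adjusted p 0.00796). This call was lost without pGIPZ-NC replicate 1 (0.0592) or shUSP39 replicate 2 (0.0530). It was also lost without shUSP39 replicates 2 and 3, where the log2 fold change was 0.16 (adjusted p 0.411). The gene lies on chromosome 10 (43881065 to 43904634, minus strand, GRCh37). In GENCODE its 6 coding transcripts with a consensus coding sequence share 1 coding exon and begin at 6 starts spread over 12355 bases, so they differ in their 5′ leaders and encode the same protein. The RefSeq rows of the table could not be tied to these starts.

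NM_001098208.1 rose in every knockdown library. It had 179, 216 and 175 counts in pGIPZ-NC and 357, 367 and 357 counts in shUSP39. In CPM this was 6.15 ± 0.519 and 11.7 ± 0.506 (SD, n = 3 each), and the log2 fold change was 0.93 (SE 0.13), at an adjusted p of 5.82e-06 over 12553 rows. Without shUSP39 replicates 2 and 3 it was 0.86 (adjusted p 0.00218).

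NM_001098207.1 rose as well, from 94, 67 and 85 counts to 131, 200 and 168 counts. Its log2 fold change was 1.03 (SE 0.22, adjusted p 0.000686), and the groups did not overlap. shUSP39 replicate 1 was the lowest of the knockdown libraries, and with it as the lone knockdown library the value was 0.62 (adjusted p 0.2099).

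The other 3 tested rows did not pass. NM_001098206.1, the most abundant in the controls, had 384, 466 and 436 counts in pGIPZ-NC and 383, 418 and 374 counts in shUSP39. Its log2 fold change was -0.13 (adjusted p 0.479). NM_001098205.1 and NM_004966.3 had log2 fold changes of -0.10 and -0.25 (adjusted p 0.735 and 0.548). The sixth row, NM_001098204.1, had at most 16 counts in a library and was not tested.

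**Figure D3:**
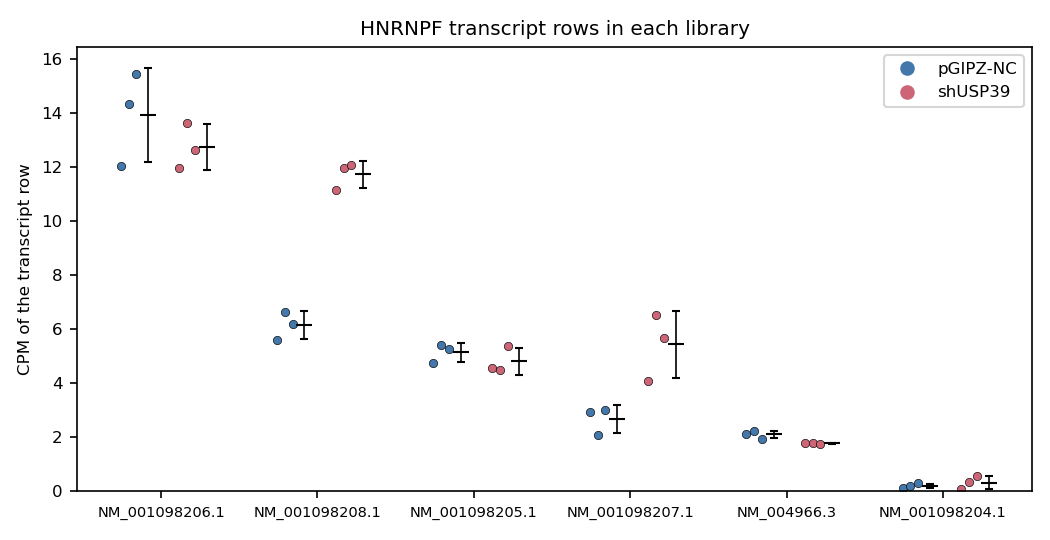
Level in CPM (y axis) of the 6 HNRNPF transcript rows in each library of pGIPZ-NC (blue) and shUSP39 (red), with the mean and SD of 3 libraries in black. NM_001098208.1 and NM_001098207.1 are higher in all 3 knockdown libraries, and the more abundant NM_001098206.1 overlaps between groups.

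The makeup of HNRNPF counts therefore shifted. NM_001098208.1 held 20.4% ± 1.13 of them in pGIPZ-NC and 31.9% ± 1.14 in shUSP39, and NM_001098207.1 held 8.91% ± 2.04 and 14.7% ± 2.36 (SD, n = 3 each). NM_001098206.1 went from 46.0% ± 2.22 to 34.7% ± 1.28. Whether the rows of a gene changed unequally was tested with diffSpliceDGE, which gave HNRNPF an adjusted p of 1.92e-05. Summed, the 2 rows that rose had 8.83 ± 0.338 and 17.2 ± 1.71 CPM, and the other 4 rows had 21.4 ± 2.07 and 19.6 ± 1.096 CPM. These sums were formed after the rows were seen to rise, so they were not tested. Reads shared by several transcripts of a gene may be left out of such a table, in which case the shares are those of distinguishable reads and not of molecules. Without shUSP39 replicates 2 and 3 the adjusted p of the usage test was 0.0761. It was at most 0.0102 under the other scaling, filters, method and block and with any 1 library left out.

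HNRNPF was the only one of 5 members with at least 2 tested rows to pass that test, in which 60 of 1628 genes (3.69%) passed. HNRNPF had been named beforehand as a gene whose rows were to be compared, so the test did not single it out unprompted. In HNRNPUL1, NM_007040.5 held 92.5% ± 1.56 of counts in pGIPZ-NC and 94.5% ± 1.70 in shUSP39 (usage adjusted p 0.624). NM_001533.2 held 96.3% ± 0.178 and 95.7% ± 0.361 of HNRNPL counts (0.692). For SRRM1 and HNRNPH1 the adjusted p-values were 0.882 and 0.997. Of the other multi-row members, HNRNPM had 1 tested row and PTBP2 and PTBP3 had 0. Among single rows, 36 of the 44 were tested, with 3 called higher (8.33%, against 14.2% of all rows) and 4 called lower (11.1%, against 15.1%).

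**Figure D4:**
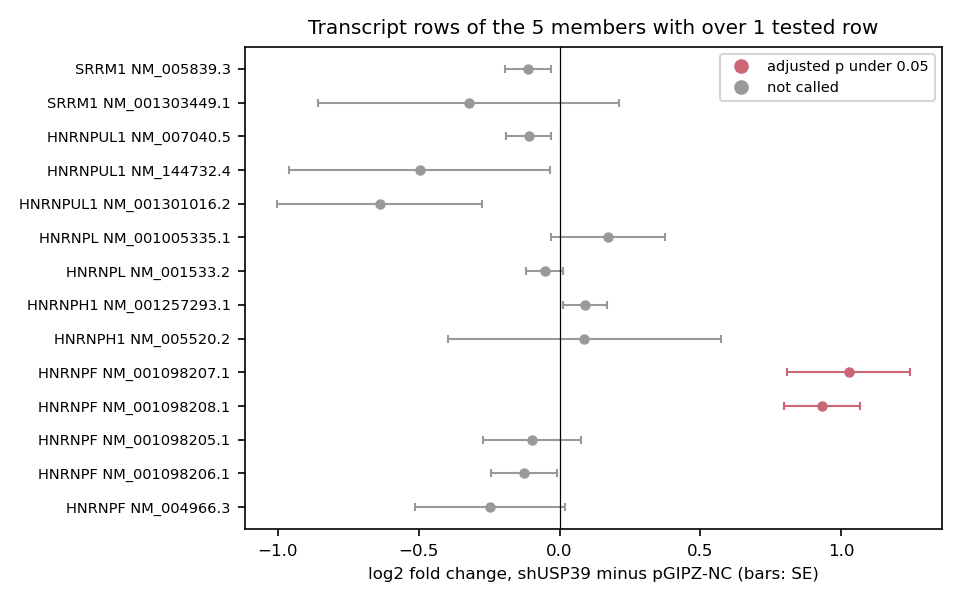
Log2 fold change (x axis, shUSP39 minus pGIPZ-NC) of each tested transcript row of the 5 members with over 1 tested row. Points are edgeR estimates, bars are standard errors, and red marks an adjusted p under 0.05. The 2 called rows, at 0.93 and 1.03, both belong to HNRNPF.

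The precision followed the number of counts. RefSeq lists 1 messenger RNA accession for 8 members and several for 23. The 6 tested members of the first kind had a median of 12948 counts per library, and their SE lay between 0.03 and 0.10. The 21 tested members of the second kind had a median of 1073 counts, and their SE lay between 0.05 and 0.63. All members of the second kind but HNRNPF had fewer rows than accessions. Examples were SRSF11 (1 of 21), PTBP1 (1 of 4) and HNRNPH1 (2 of 52). Their values are those of the rows present and not of whole genes. Gene length also differs between these genes, so the counts are not a measure of molecules. Of the 27 tested members, 24 had a 95% interval within 1.5-fold in both directions and 25 within 2-fold. The other members that were not called, leaving out TRA2A and HNRNPA1L2, were 19 genes with log2 fold changes between -0.32 and 0.14.

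**Figure D5:**
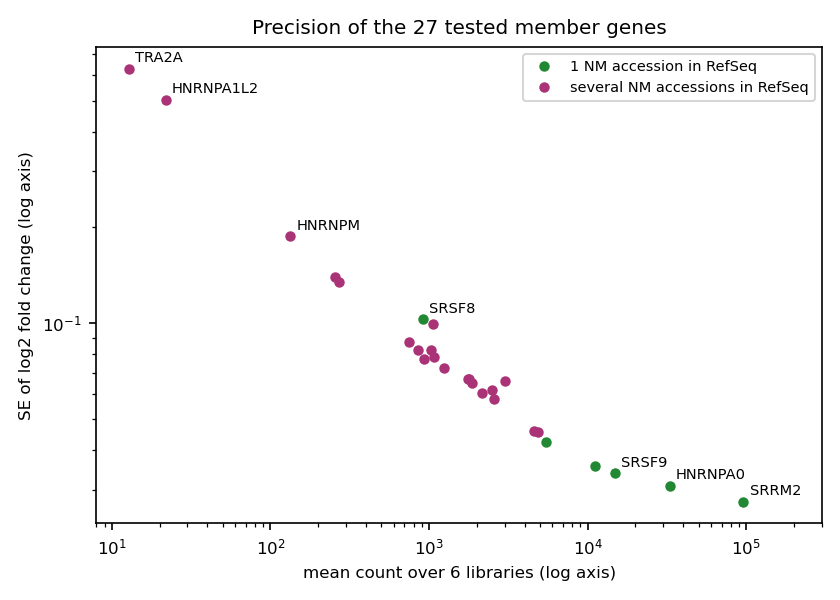
Standard error of the log2 fold change (y axis, log scale) against the mean count over 6 libraries (x axis, log scale) for the 27 tested members. Green marks members with 1 RefSeq messenger RNA accession and purple those with several. SRRM2 has the smallest error and TRA2A, at a mean of 12.8 counts, the largest.

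Genes that act on or beside these proteins were compared as lists. SR proteins are phosphorylated by SRPK and CLK kinases and brought into the nucleus by TNPO3. The list held 10 genes, among them also the kinases PRPF4B and DYRK1A, and 7 were tested. SRPK1, SRPK3 and TNPO3 were not tested. Only PRPF4B, a kinase of the tri-snRNP, was called (14.3%, against 33.6% of all genes tested). PRPF4B had 415.8 ± 17.0 CPM (SD) in the controls and 357 ± 13.6 CPM in the knockdown libraries. Its log2 fold change was -0.22 with an SE of 0.04 (adjusted p 5.75e-05, n = 3 each). CLK1 and CLK4 had log2 fold changes of 0.28 and 0.08 and did not pass (adjusted p 0.586 and 0.505). The median of the list was -0.03.

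Of 42 other RNA-binding splicing regulators 29 were tested, with 3 higher and 8 lower and a median log2 fold change of -0.06. The share called was 37.9%, against 33.6% of all genes tested. The largest called changes of this list were beyond those of any called SR protein or hnRNP. NOVA2, a neuronal regulator, had 0.731 ± 0.284 CPM (SD, n = 3) in the controls and 2.53 ± 0.925 CPM in the knockdown libraries. Its log2 fold change was 1.77 with an SE of 0.36 (adjusted p 0.000287), and 1.37 (adjusted p 0.0743) without shUSP39 replicates 2 and 3. KHDRBS3, a relative of Sam68, rose by 1.43 on the log2 scale, with an SE of 0.16 (adjusted p 5.70e-08), from 3.48 ± 0.176 to 9.37 ± 0.654 CPM (SD, n = 3 each). TAF15, an RNA-binding protein, fell by 0.43 (SE 0.07, adjusted p 1.10e-05). TIA1, a binder of U-rich sequence near 5′ splice sites, fell by 0.55 (SE 0.19, adjusted p 0.0227), but did not pass without pGIPZ-NC replicate 2 (0.0972) or 3 (0.0533), or without shUSP39 replicate 2 (0.101), 3 (0.0798) or both (0.512).

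Of 15 factors of nonsense-mediated decay and of the exon junction complex that triggers it, 14 were tested. Of these, 1 was higher and 4 were lower, and the median log2 fold change was -0.07. The share called was 35.7%, against 33.6% of all genes tested. RBM8A, a core protein of that complex, fell by 0.17 on the log2 scale (adjusted p 0.000296), and stood at -0.11 without shUSP39 replicates 2 and 3 (adjusted p 0.108). SMG6, the endonuclease of the pathway, stood at -0.22 (adjusted p 0.0132), and missed the threshold without shUSP39 replicate 2 (0.0530) or without replicates 2 and 3 (0.234). SMG9 had a log2 fold change of 0.15 (adjusted p 0.0289), and did not pass without pGIPZ-NC replicate 1 (0.146) or 2 (0.1396) or without shUSP39 replicate 1 (0.0592), 2 (0.107) or both 2 and 3 (0.152). UPF1, the central helicase, did not pass (log2 fold change 0.34, adjusted p 0.189).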

How the data were processed

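RNA-seq of A2780 cells was analysed, with 3 pGIPZ-NC and 3 shUSP39 libraries grouped by the sample titles. The authors deposited raw read counts per RefSeq messenger RNA, without pooling. The submitters' processing notes name HISAT2, Cufflinks and the build hg19. The counter and its use of strand are not given in the sources used here, so antisense or overlapping genes cannot be told apart. The authors' deposited group means, fold changes, p-values and q-values were not used. USP39 is not reported here.

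Counts were summed per symbol, and 46 of 47 date-like symbols were replaced through the accession. Differential expression was fitted in edgeR 4.0.16 (R 4.3.3) with filterByExpr, TMM scaling, robust quasi-likelihood and group as the only term, over all 6 libraries. P-values were Benjamini-Hochberg adjusted over all genes tested, and measure only the spread between these libraries. The SE was the absolute log2 fold change over the square root of F. Transcript usage was tested with diffSpliceDGE. Positions come from GENCODE 44 on GRCh37, upstream sequences and accession numbers from RefSeq on GRCh38.p14.

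The members and lists were chosen with earlier results of these data known. All called members, SRSF2, SRRM2, HNRNPU and HNRNPF were named in full, and from each other list the 2 largest called rises and falls. CLK1, CLK4, UPF1 and the other members were named afterwards. The fits were tested on simulated data with the same spread set for all genes. At a simulated log2 change of 1, 100% of the changed genes were recovered, and at 0.5, 80%. Of genes with 1 row doubled, the usage test recovered 85%. Changes as small as those of the called member genes were not simulated.

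Alternatives were RLE and upper-quartile factors, no filter, a minimum of 10 counts in each library, DESeq2 1.42.0, the replicate block, the highest row of each gene, the 2-fold limit, and each library left out. For usage they were the Simes method, rows with at least 5% of a gene's counts, and the same scaling, filter, block and left-out libraries. Leaving out shUSP39 replicates 2 and 3 together was added after seeing the data.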

Additional observations from a re-analysis of the deposited data

How the results depend on the processing

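The 6 called members kept their direction under all alternatives, except HNRNPF, whose log2 fold change was -0.12 when only the highest row of each gene was used, since that row is not one of those that rose. HNRNPA2B1, HNRNPA0 and SRSF12 stayed called in every fit, the 2-fold limit apart. The count of higher members was 1 with the highest row and ranged from 1 to 2 across fits that left out one library. With the 2-fold limit as well the counts were 0 higher and 0 lower members and 728 genes in all, which follows from how the limit is built. Without shUSP39 replicates 2 and 3 together, 1 member was higher and 2 were lower, 0 members changed in transcript usage, and 2244 genes were called, with fewer libraries. Among members that were not called, TRA2B was 0.0023 under upper-quartile scaling, and without shUSP39 replicates 2 and 3 PTBP1 was -0.0891 and SRSF7 0.0404. The cause was not tested. Across fits that left out one library HNRNPL ran from -0.12 to 0.0406, HNRNPLL from -0.0343 to 0.18 and PTBP1 from -0.0134 to 0.0942. With upper-quartile factors 58.0% of called genes were higher, against 48.0%.

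The main fit did not take the replicate numbers as pairing the libraries. Deviations from the group means correlated at 0.07, 0.0048 and 0.02 for numbers 1, 2 and 3. Noise in low counts weakens such correlations, so they cannot decide whether the numbers pair the libraries. pGIPZ-NC replicates 1 and 3 correlated best with their own number, and replicate 2 with shUSP39 replicate 3 (0.03). With the replicate block 3981 genes were called in place of 3598, and 6 members were lower in place of 4, the added ones being SRRM2 and SRSF4. HNRNPF usage kept an adjusted p of 0.000236 with the block. Low counts limit TRA2A, HNRNPA1L2 and the 4 untested members.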
